A study of Mus musculus with 2 samples.

Results

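The Wnt pathway genes described here were the 45 rows, of 18498 rows in the table, whose symbol names a Wnt ligand (*Wnt*), a Frizzled receptor (*Fzd*), a secreted Frizzled-related protein (*Sfrp*) or a Dickkopf protein (*Dkk*), or is *Wif1*, *Lrp5*, *Lrp6*, *Ctnnb1*, *Axin1*, *Axin2*, *Lef1*, *Tcf7*, *Tcf7l1*, *Tcf7l2*, *Nkd1* or *Nkd2*. They were chosen by symbol and not by an expression limit, although earlier results of these data were known. By role they were 17 ligands, 12 receptors, 7 secreted antagonists, 2 genes of cytoplasmic transduction, 4 nuclear partners of β-catenin and 3 feedback inhibitors. Levels were compared between 2 poly(A) RNA libraries of mouse tongue, made from the circumvallate papillae (CvP, 1 library) and from papilla-free epithelium (Epi, 1 library). Both came from C57BL/6J mice of 12 to 30 weeks, with no treatment named. The sequencing methods of the study name neither sex nor diet. Male sex is stated for its RT-PCR mice of that age, and normal chow for its animals in general. Each library pooled RNA of at least 20 animals. The spread between animals or dissections was therefore not measured, no test between tissues was possible, and every difference below is one between these 2 libraries.

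Wnt proteins are secreted lipid-modified signals. A ligand that brings a Frizzled receptor and the co-receptor Lrp5 or Lrp6 together stops the Axin scaffold from marking β-catenin for destruction, and β-catenin then enters the nucleus and switches on genes together with the Tcf and Lef1 proteins. Antagonists outside the cell either bind the ligand (Wif1, Sfrp proteins) or the co-receptor (Dickkopf proteins), and some target genes, such as *Axin2* and *Nkd1*, encode inhibitors that dampen the signal from inside. Other ligands, such as Wnt5a, act mostly without β-catenin. In the tongue, Wnt signalling is known for the formation of taste papillae and the renewal of taste buds from basal keratinocytes.

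Values are RPKM, a read density corrected for the length of the exon model and for the number of mapped reads. The spacing of the lowest values gave about 28377819 mapped reads in the CvP library and 27909743 in the Epi library. Intervals of the CvP/Epi ratios are 95% exact (Clopper-Pearson) intervals from estimated reads and cover counting error only. Taken over all levels, the table was shifted towards the CvP. The median ratio was 1.31 (log2 0.39) over the 10363 rows with an RPKM of at least 1 in both. The shift depended on the level. The median log2 ratio, with a pseudocount of 0.1, was 1.01 in rows with a mean RPKM of 0.5 to 3. It was 0.59 at 3 to 10, 0.29 at 10 to 30 and -0.03 at 30 or more. A ratio of a single gene is therefore best read against rows of its level, for which the 1.31 does not allow. The tissue labels were checked with marker genes. All 10 listed taste cell markers were over 3-fold higher in the CvP, with summed RPKM of 411 and 5.82, and *Kcnq1*, *Pkd2l1* and *Snap25* were listed at 0 in the Epi. All 7 basal keratinocyte genes were expressed in both, with summed RPKM of 2615 and 3371. Of these, *Krt14* was over 3-fold higher in the Epi (295 and 1140) and *Krt15* was also lower in the CvP (497 and 784), whereas the other 5 had ratios from 1.19 to 2.37. Of 6 skeletal muscle genes, 5 were over 3-fold higher in the Epi, with a summed RPKM of 2.73 in the CvP against 40.9 in the Epi.

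Among the members with a mean RPKM over both libraries of at least 0.5, 5 had the highest CvP/Epi ratios. They were the antagonist *Wif1*, the feedback inhibitors *Nkd1* and *Nkd2*, and the ligands *Wnt9a* and *Wnt5b*. Their ratios were above 10 as deposited, but the intervals of *Nkd2* (8.17 to 15.3) and *Wnt5b* (7.95 to 34.6) reached below 10. The share of all rows past 10 was not counted, so whether 5 such members are many cannot be said. *Nkd1*, *Nkd2* and *Wnt5b* had a mean RPKM of 0.5 to 3, where 34.5% of all rows were over 3-fold higher in the CvP. The receptors *Fzd4* and *Fzd1* and the nuclear partner *Tcf7l2* were also over 3-fold higher in the CvP. The ligands with the highest RPKM, *Wnt4* and *Wnt7b*, and the nuclear partner *Lef1* were instead lower in the CvP, and *Wnt3* was listed at 0 in the CvP and at 0.99 RPKM in the Epi. *Axin2*, a widely used readout of β-catenin signalling, differed by 1.16-fold. In these pooled tissues a lower level may mean fewer cells of a type or less RNA per cell, which cannot be told apart.

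**Figure D1:**
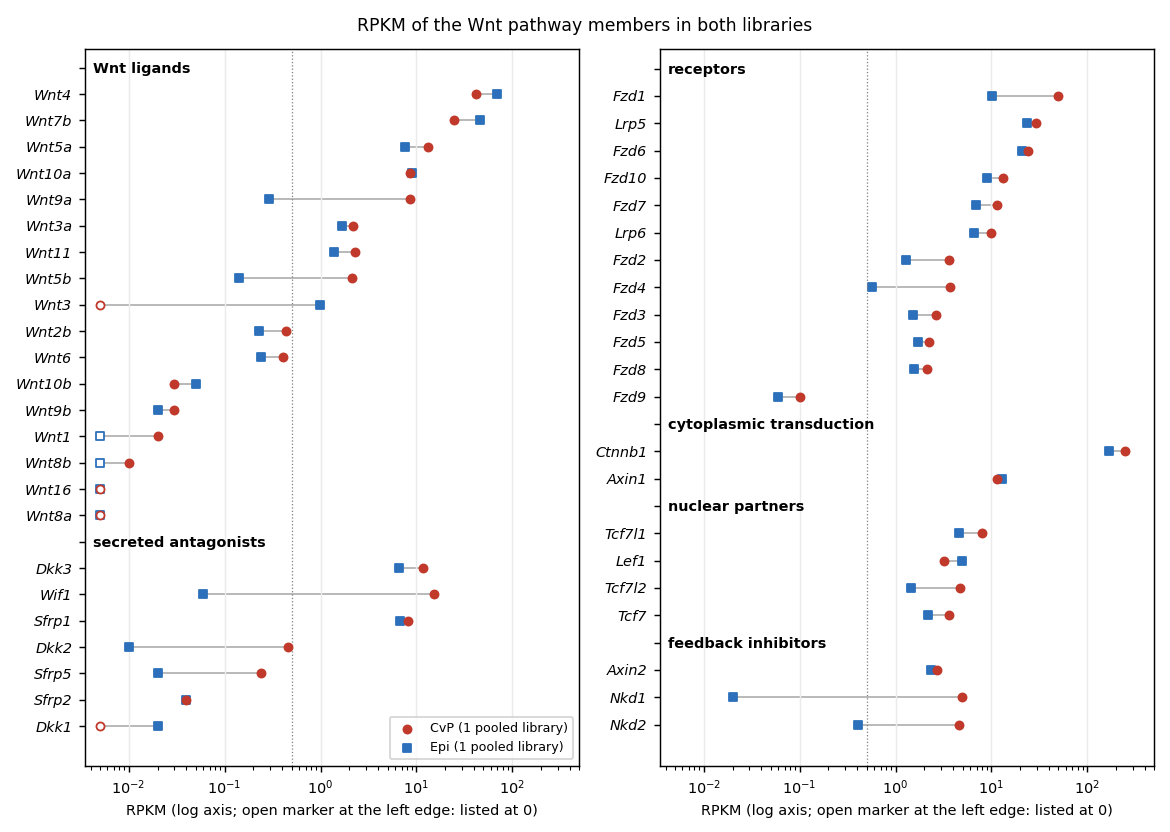
RPKM of the 45 members in the CvP library (red circles) and the Epi library (blue squares) on a log axis, by role, with open markers at the left edge for values listed at 0 and a dotted line at 0.5 RPKM. Among members with a mean RPKM of at least 0.5, the widest gaps are those of *Wif1* (15.1 and 0.06), *Nkd1* (4.94 and 0.02) and *Wnt9a* (8.60 and 0.29), whereas *Wnt3* is at 0 in the CvP against 0.99 in the Epi.

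Of the 45 members, 31 had a mean RPKM over both libraries of at least 0.5, and 8 of these 31 (25.8%) were over 3-fold higher in the CvP. The same fold was passed by 16.0% of the 13083 rows with that mean, and the share depended on the level. In rows with a mean RPKM of 0.5 to 3 it was 34.5%, against 4 of 12 members. In rows of 3 to 10 it was 11.9%, against 3 of 10 members, and in rows of 10 to 30 it was 5.30%, against 1 of 6. None of the 3 members above 30 passed it (4.83% of such rows). Of the 31 members, 26 (83.9%) had a ratio above 1, as did 78.1% of all such rows, and 20 (64.5%) lay above the median ratio of the table, as did 57.2%. In the opposite direction, 0 of 31 members were over 3-fold higher in the Epi, compared with 1.96% of all such rows. *Wnt3*, listed at 0 in the CvP, was left out of this count by its mean of 0.495, just under the minimum. A CvP RPKM above 10 together with a ratio above 3, the limits stated in the study, was met by 2 of the 45 members (4.44%), *Wif1* and *Fzd1*. It was met by 435 of all rows (2.35%). The study reported more genes with these limits, so these calls are not its own list, and the reason was not found. In each level class the count of members was within 2 genes of what the background share gives, so the counts say little about the family and the description turns on its single members. Over the 31 genes the median log2 ratio, with a pseudocount of 0.1, was 0.68, and over all 13083 rows it was 0.51. Without the filter it was 0.55 for the 45 members and 0.49 for all rows.

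**Figure D2:**
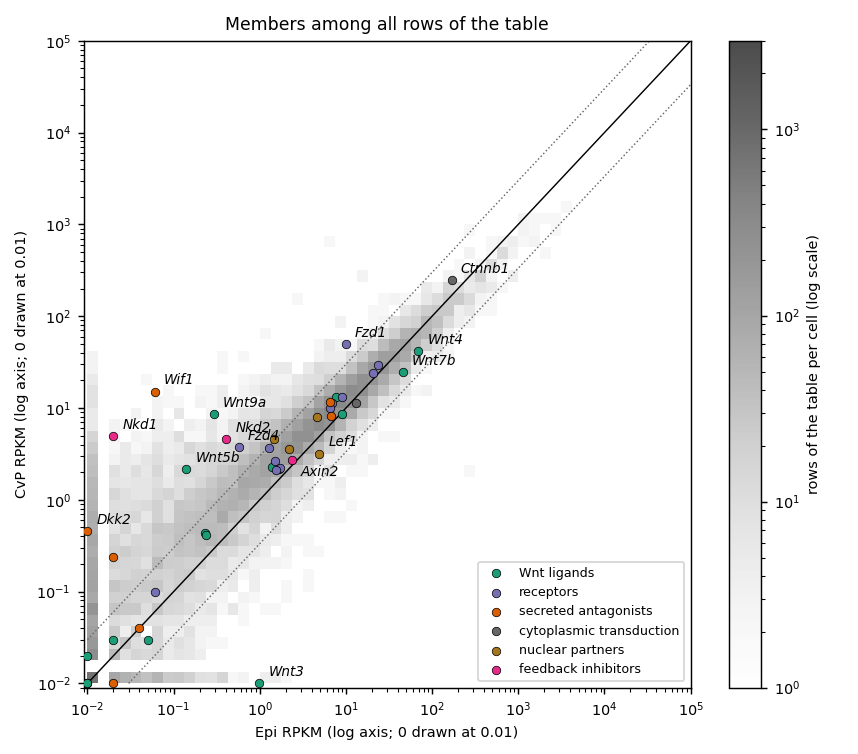
CvP RPKM against Epi RPKM on log axes for all 18498 rows (grey, number of rows per cell) and the 45 members (coloured by role), with a line of equality and dotted lines at 3-fold. *Wif1*, *Nkd1* and *Wnt9a* lie far above the upper dotted line, most members lie close to the line of equality, and *Wnt3* is at the lower edge.

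Among the ligands, 8 of 17 had a mean RPKM of at least 0.5. *Wnt4*, a ligand of kidney and reproductive tract development, had 42.0 RPKM in the CvP against 69.1 in the Epi. *Wnt7b*, an epithelial ligand, had 24.8 and 46.0. These were the first and second ligands by RPKM in both libraries, and both were lower in the CvP, *Wnt4* by 1.65-fold (95% interval 1.59 to 1.71) and *Wnt7b* by 1.85-fold (1.76 to 1.95), under each scaling tried. *Wnt10a*, known for its role in teeth and lingual papillae, was at 8.49 RPKM in the CvP against 8.92 in the Epi, and its interval from 0.847 to 1.07 included 1. *Wnt5a*, which acts mostly outside the β-catenin branch, was at 13.3 and 7.61 RPKM, giving a ratio of 1.75 (1.64 to 1.86). Exons of *Wnt5a* share 358 bases (4.58%) with the antisense lincRNA gene *Gm2670*. Such overlaps with a gene on the opposite strand, whose reads cannot be told apart without strand, were found for 7 members. The others were *Sfrp2* (16.1% of its exon bases), *Wnt11* (10.02%), *Tcf7l1* (5.39%), *Ctnnb1* (4.71%), *Axin2* (3.80%) and *Wnt7b* (0.861%).

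*Wnt9a*, a ligand known from joint formation, had 8.60 RPKM in the CvP against 0.29 in the Epi, about 810 and 27 reads, giving a ratio of 29.7 (20.1 to 45.1). Its RPKM was 1.01 times that of *Wnt10a* in the CvP and 0.0325 times that of *Wnt10a* in the Epi. These quotients depend on the gene length used. The listed length of *Wnt9a* was 5.22 kb against 3.32 kb annotated, and that of *Wnt10a* 2.33 kb against 2.47 kb. *Wnt5b*, a close relative of *Wnt5a*, had 2.14 and 0.14 RPKM, giving a ratio of 15.3 (7.95 to 34.6) that rests on about 9 reads in the Epi. The paralogs *Wnt5a* and *Wnt5b* therefore differed in their ratios by more than their counting intervals. *Wnt11*, a ligand of cell movement, had 2.28 and 1.39 RPKM. The β-catenin-activating ligand *Wnt3a* had 2.17 and 1.68 (95% interval of the ratio 1.02 to 1.63). It was above 1 as deposited and below 1 (0.984) after division by the median ratio.

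Of the 9 ligands below the mean of 0.5, *Wnt3* had the highest value. This ligand, which acts through β-catenin, was listed at 0 in the CvP and at 0.99 RPKM in the Epi, about 85 reads. Against a floor of 3 reads in the CvP library it was at least 28.8-fold lower there, a bound that leaves out the counting error of the Epi reads. The 95% exact interval, which includes it, began at 22.9-fold lower. Of 10588 rows with an Epi RPKM of at least 0.99, 12 were listed at 0 in the CvP. Those rows include far higher Epi levels, and *Wnt3* was singled out for its 0. The count therefore does not say how rare such a 0 is at the level of *Wnt3*. *Wnt2b* had 0.44 and 0.23 RPKM and *Wnt6* had 0.41 and 0.24. The other 6, *Wnt1*, *Wnt8a*, *Wnt8b*, *Wnt9b*, *Wnt10b* and *Wnt16*, had at most 4 estimated reads in either library so that a difference could not be detected at this depth.

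The summed RPKM of the 17 ligands was 105 in the CvP against 137 in the Epi. *Wnt4* and *Wnt7b* made up 63.8% of it in the CvP against 84.2% in the Epi, whereas *Wnt9a* and *Wnt5b* made up 10.3% and 0.315%. Levels of different genes depend on the listed gene length, which for *Wnt4* was 14.0 kb against 4.19 kb for its longest annotated coding transcript, and for *Wnt7b* 16.4 kb against 3.49 kb. Put on the annotated lengths, a comparison added after the values were seen, the share of *Wnt4* and *Wnt7b* was 83.8% in the CvP against 94.6% in the Epi. The length cancels in the ratio of a gene between libraries. It does not cancel where the RPKM of different genes is compared within a library, and those quotients were not put on the annotated lengths.

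**Figure D3:**
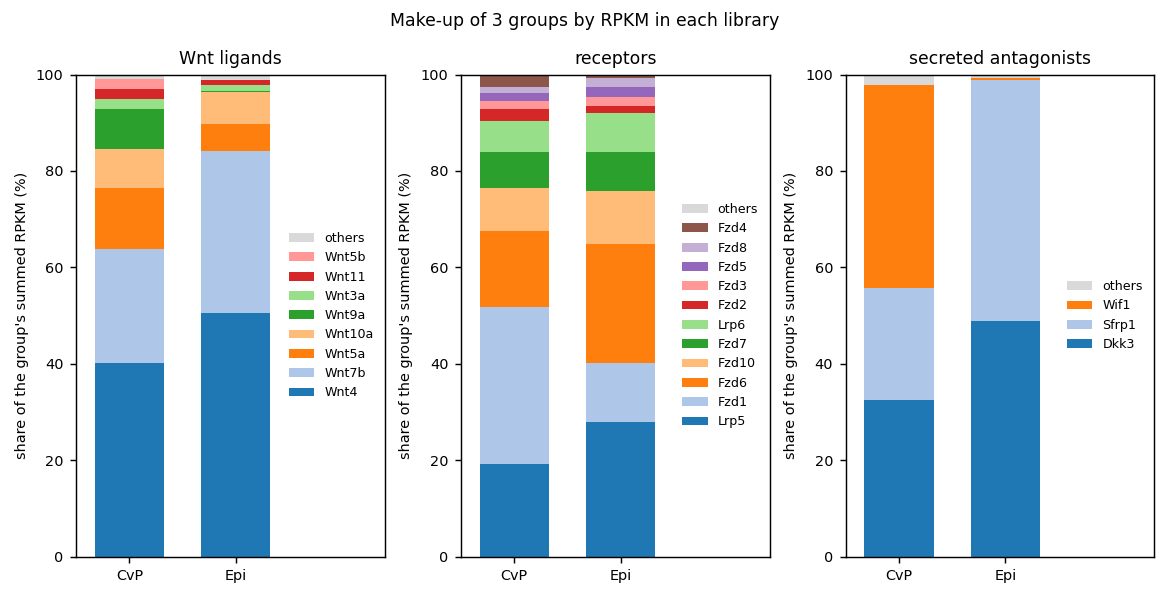
Share of each gene in the summed RPKM of the ligands, the receptors and the secreted antagonists in the CvP and Epi libraries, with genes under 1.5% in both drawn together as others. *Wnt9a* takes 8.21% of the ligand sum in the CvP and 0.212% of that in the Epi, *Fzd1* takes 32.6% of the receptor sum in the CvP against 12.1% in the Epi, and *Wif1* takes 42.3% of the antagonist sum in the CvP against 0.444% in the Epi.

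Several ligand genes lie side by side on NCBI37/mm9, an arrangement in pairs known for this family. *Wnt3a* and *Wnt9a* are 16.2 kb apart on chromosome 11, transcribed away from each other (59061544 to 59104253 on the minus strand and 59120432 to 59147054 on the plus strand). *Wnt9a* had 3.96 times the RPKM of *Wnt3a* in the CvP and 0.173 times in the Epi. *Wnt9b* and *Wnt3* are 24.4 kb apart on the same chromosome (103588677 to 103611135 and 103635489 to 103679335). *Wnt9b* was at 0.03 and 0.02 RPKM, so the Epi signal at this locus was that of *Wnt3*. *Wnt6* and *Wnt10a* are 6.70 kb apart on chromosome 1, both on the plus strand, and *Wnt10a* was the more abundant in both libraries. The 11.7 kb pair of *Wnt10b* and *Wnt1* on chromosome 15 was at 0.05 RPKM or less throughout.

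Of the 12 receptor genes, 11 had a mean RPKM of at least 0.5, and all 11 had a ratio above 1 (78.1% of all rows with that mean), with 8 above the median ratio of the table (57.2% of all such rows). *Fzd1* (chromosome 5, 4753839 to 4758216, minus strand) had 49.5 RPKM in the CvP against 10.03 in the Epi, about 6147 and 1225 reads, giving a ratio of 4.94 (4.64 to 5.25). It was the first receptor by RPKM in the CvP and the third in the Epi, after *Lrp5* and *Fzd6*. *Fzd4* (chromosome 7, 96552876 to 96558620, plus strand), which also binds the non-Wnt ligand norrin, had 3.72 and 0.57 RPKM, giving a ratio of 6.53 (4.92 to 8.68). *Fzd2* lay just under the 3-fold limit, at 3.65 and 1.29 RPKM and a ratio of 2.83 (2.31 to 3.47), and passed it when the RPKM values were rescaled to equal sums.

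The other receptors were closer to the median ratio of the table, a value that does not allow for their level. *Fzd6*, known for the orientation of hair follicles, had 24.02 RPKM in the CvP against 20.6 in the Epi. The co-receptors *Lrp5* and *Lrp6* had 29.1 and 23.3 RPKM and 9.96 and 6.58 RPKM, ratios of 1.25 (1.19 to 1.31) and 1.51 (1.42 to 1.61). *Fzd3*, *Fzd7*, *Fzd8* and *Fzd10* had ratios from 1.38 to 1.74, and *Fzd5* one of 1.29. *Fzd5*, *Fzd6* and *Lrp5* were below 1 after division by the median ratio. *Fzd9* was at 0.10 RPKM or less. *Fzd1* thus had 2.06 times the RPKM of *Fzd6* in the CvP and 0.486 times in the Epi.

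Of the 7 secreted antagonists, 3 had a mean RPKM of at least 0.5. *Wif1* (chromosome 10, 120471060 to 120537698, plus strand), whose product binds Wnt proteins outside the cell, had 15.1 RPKM in the CvP against 0.06 in the Epi. These are about 984 and 4 reads, for a ratio of 252 (94.2 to 889.7). *Dkk3*, a divergent Dickkopf, had 11.6 and 6.61 RPKM, giving a ratio of 1.76 (1.60 to 1.95). *Sfrp1*, which binds Wnt ligands, had 8.26 and 6.74, giving a ratio of 1.23 (1.12 to 1.35), which was below 1 after division by the median ratio. *Wif1* was therefore the first antagonist by RPKM in the CvP, at 1.30 times *Dkk3*, and was at 0.00908 times *Dkk3* in the Epi. The summed RPKM of the antagonists was 35.8 in the CvP against 13.5 in the Epi.

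The other antagonists were low. *Dkk2*, whose product binds Lrp5 and Lrp6, had 0.46 RPKM in the CvP against 0.01 in the Epi, about 48 and 1 reads, and a ratio of 46.0 (8.08 to 1903). *Sfrp5* had about 13 reads in the CvP against 1 in the Epi, for a ratio of 12.0 (1.92 to 543). *Dkk1* and *Sfrp2* had at most 2 estimated reads in either library. All of these were below the mean of 0.5 and were not counted among the 8 genes.

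In the cytoplasm, *Ctnnb1*, the gene of β-catenin, which also serves in cell junctions, had the highest RPKM of all 45 members, at 247 in the CvP against 169 in the Epi. Its ratio of 1.46 (1.43 to 1.49) was 1.11 times the median ratio of the table. Its log2 ratio, with a pseudocount of 0.1, was 0.55, against a median of -0.03 in rows with a mean RPKM of at least 30. *Axin1*, the scaffold of the destruction complex, had 11.3 and 13.0 RPKM, giving a ratio of 0.871 (0.806 to 0.942), and was above 1 when the RPKM values were rescaled to equal sums.

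Of the 4 nuclear partners, 3 were higher in the CvP as deposited, near the 78.1% of all rows with a mean RPKM of at least 0.5. *Tcf7l2* had 4.65 and 1.45 RPKM, giving a ratio of 3.21 (2.70 to 3.82), so that its interval reached below 3. *Tcf7l1*, mostly a repressor, had 7.88 and 4.56 RPKM, and *Tcf7* had 3.61 and 2.16, ratios of 1.73 and 1.67. *Lef1* was the exception, at 3.19 RPKM in the CvP against 4.89 in the Epi, 1.53-fold lower in the CvP (1.33 to 1.77). *Tcf7l2* and *Lef1* thus exchanged places: *Lef1* had the higher RPKM of the pair in the Epi and *Tcf7l2* in the CvP.

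The 3 feedback inhibitors, of which *Axin2* and *Nkd1* are textbook target genes of the pathway, did not share a ratio. *Nkd1* (chromosome 8, 91045243 to 91118786, plus strand), whose product binds Dishevelled, had 4.94 RPKM in the CvP against 0.02 in the Epi, about 605 and 2 reads. The ratio was 247 (82.0 to 2462). The related *Nkd2* (chromosome 13, 73956776 to 73985079, minus strand) had 4.54 and 0.41 RPKM, about 517 and 46 reads, giving a ratio of 11.1 (8.17 to 15.3). *Axin2*, which takes part in the destruction of β-catenin, had 2.73 and 2.35 RPKM, and the interval of its ratio from 0.989 to 1.37 included 1. Exons of *Axin2* share 209 bases with the antisense gene *Gm11670*. *Nkd1* had 1.81 times the RPKM of *Axin2* in the CvP and 0.00851 times in the Epi.

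**Figure D4:**
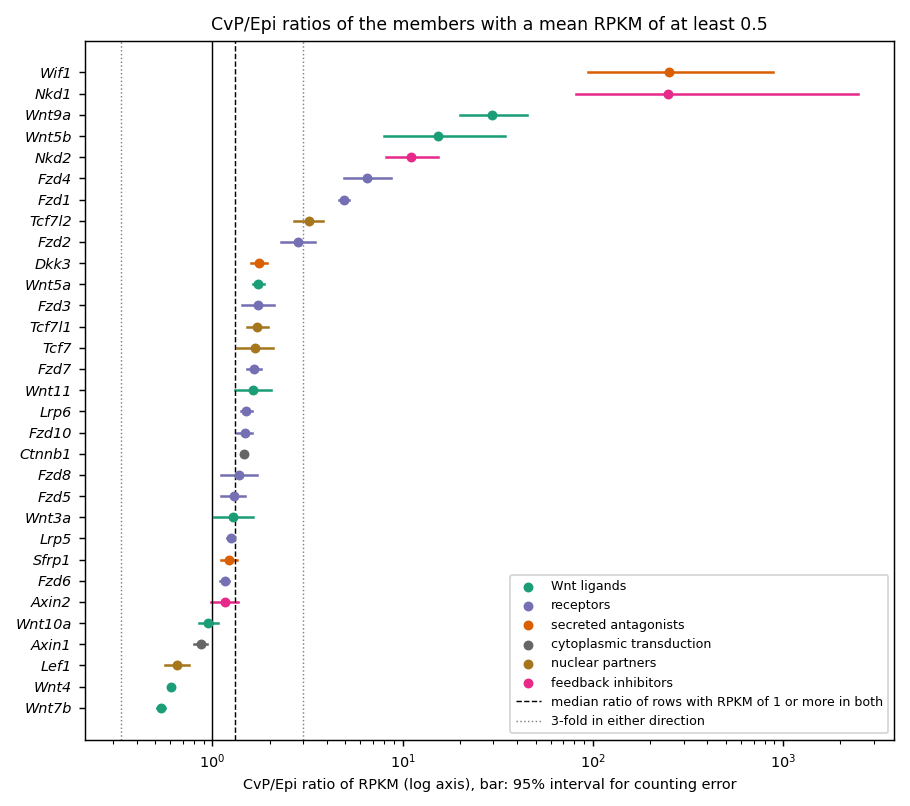
CvP/Epi ratios of the 31 members with a mean RPKM of at least 0.5 on a log axis, with 95% exact intervals for counting error, a line at 1, a dashed line at the median ratio of the table (1.31) and dotted lines at 3-fold. *Wif1* and *Nkd1*, at 252 and 247, stand apart, and *Wnt7b*, *Wnt4*, *Lef1* and *Axin1* have intervals below 1.

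The 5 members with a mean RPKM of at least 0.5 and ratios above 10, and *Wnt3*, are shown with the 250 bases before an annotated start. These are the genes on which the description turns. The sequences are those of RefSeq on GRCm38.p6, a later build than that of the table, written along the gene in lower case with matches to the Tcf/Lef motif in capitals. For *Wnt5b* the window of 3 that holds a match is shown, and it was chosen for that match. The windows at chr6:119467212-119467461 and chr6:119544348-119544597 held none. On the minus strand both lie upstream of the printed one, which is therefore not before the first start of the gene. Which start gave the reads was not tested.
*Nkd1* (chr8:88527383-88527632, plus strand): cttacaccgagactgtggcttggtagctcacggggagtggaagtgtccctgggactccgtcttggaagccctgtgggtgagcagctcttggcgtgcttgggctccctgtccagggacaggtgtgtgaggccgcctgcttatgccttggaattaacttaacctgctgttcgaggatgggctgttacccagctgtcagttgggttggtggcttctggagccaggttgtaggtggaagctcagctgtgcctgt
*Nkd2* (chr13:73847632-73847881, minus strand): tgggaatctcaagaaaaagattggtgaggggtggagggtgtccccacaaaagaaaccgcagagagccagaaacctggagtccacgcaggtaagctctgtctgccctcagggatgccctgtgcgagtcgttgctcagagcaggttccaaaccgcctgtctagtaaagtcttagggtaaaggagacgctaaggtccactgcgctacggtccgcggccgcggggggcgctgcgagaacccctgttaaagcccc
*Wif1* (chr10:121033754-121034003, plus strand): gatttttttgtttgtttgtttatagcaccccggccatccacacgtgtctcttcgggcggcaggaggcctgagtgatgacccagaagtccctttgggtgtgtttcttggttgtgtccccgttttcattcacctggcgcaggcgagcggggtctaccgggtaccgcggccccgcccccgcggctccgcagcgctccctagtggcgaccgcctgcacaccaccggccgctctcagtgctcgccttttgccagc
*Wnt3* (chr11:103773925-103774174, plus strand): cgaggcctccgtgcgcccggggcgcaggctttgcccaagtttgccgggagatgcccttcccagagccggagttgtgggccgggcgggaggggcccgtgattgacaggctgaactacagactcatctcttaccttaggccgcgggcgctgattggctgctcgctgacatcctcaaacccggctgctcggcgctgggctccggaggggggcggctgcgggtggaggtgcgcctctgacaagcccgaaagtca
*Wnt5b* (chr6:119449387-119449636, minus strand): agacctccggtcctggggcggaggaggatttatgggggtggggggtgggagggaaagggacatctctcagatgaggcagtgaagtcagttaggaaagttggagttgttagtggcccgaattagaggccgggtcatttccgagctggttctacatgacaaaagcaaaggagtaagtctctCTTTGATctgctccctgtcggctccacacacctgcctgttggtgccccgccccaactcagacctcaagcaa
*Wnt9a* (chr11:59306680-59306929, plus strand): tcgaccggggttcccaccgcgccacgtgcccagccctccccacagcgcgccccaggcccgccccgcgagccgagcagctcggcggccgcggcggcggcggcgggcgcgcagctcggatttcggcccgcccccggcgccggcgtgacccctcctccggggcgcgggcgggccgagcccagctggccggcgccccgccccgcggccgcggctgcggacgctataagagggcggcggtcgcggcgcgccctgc

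The *Wnt3* window belongs to the gene that was at 0 in the CvP, the other windows to genes that were over 10-fold higher there. The motif searched was CTTTGAT, the core bound by Tcf and Lef1 proteins, on either strand, whose reverse complement can overlap it only at the AT end, and it was chosen after the expression values were seen. A match was found in 3.21% of the 32851 windows of the RefSeq table and in 2 of the 41 windows (4.88%) of the 32 members that matched by symbol, 1 of *Wnt5b* and 1 of *Wnt11*. A wider form, CTTTG with A or T at both of the next bases, was scanned first, and the single form was taken after its result had been seen. The wider form was found in 14.8% of all windows and in 6 of the 41 member windows (14.6%), those of *Dkk1*, *Fzd7*, *Lef1*, *Tcf7l2*, *Wnt11* and *Wnt5b*, so the member share lay near that of all windows. Of the 6 printed windows, that of *Wnt5b*, printed because it held a match, held 1, and the others held none in these 250 bases. The *Wnt9a* window had a G and C content of 84.4% and 48 CG pairs, and the *Nkd1* window 58.4% and 6 CG pairs. The medians were 66.8% and 21 CG pairs over the member windows and 52.4% and 6 over all windows.

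Beyond the members, 58 of 60 listed genes of the pathway were read from the table, and 49 of them had a mean RPKM of at least 0.5. Of these 49 genes, 3 were over 3-fold higher in the CvP (16.0% of all such rows) and 3 over 3-fold higher in the Epi (1.96% of all such rows). Higher in the CvP were *Notum*, whose product removes the lipid from Wnt proteins, at 27.1 and 3.26 RPKM (ratio 8.32, 7.20 to 9.69), the co-repressor *Tle2* at 5.63 and 0.86 RPKM (6.55, 5.04 to 8.61) and *Btrc*, which marks β-catenin for destruction, at 2.61 and 0.85 RPKM (3.07, 2.55 to 3.71). The 3 genes lower in the CvP encode inhibitors of the pathway as well. *Apcdd1*, a membrane inhibitor known from the hair follicle, had 5.20 RPKM in the CvP against 43.9 in the Epi, 8.44-fold lower (7.62 to 9.37). *Sostdc1*, a secreted inhibitor known to limit taste papillae, had 1.96 and 7.22 RPKM, 3.68-fold lower (2.95 to 4.68). *Ctnnbip1*, whose product blocks the contact of β-catenin with Tcf proteins, had 28.6 and 93.4 RPKM, 3.27-fold lower (3.12 to 3.43). Genes that act against the signal were thus found on both sides. *Wif1*, *Nkd1*, *Nkd2*, *Notum*, *Tle2* and *Btrc* were higher in the CvP, and *Apcdd1*, *Sostdc1* and *Ctnnbip1* in the Epi. The share of such genes among all 49 was not counted, so this is not a trait of either side. The median log2 ratio of the 49 genes was 0.50, that of all 13083 rows 0.51.

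The genes that prepare ligands for export, chosen after their values were seen, differed in opposite directions as well. *Wls*, the carrier of Wnt proteins to the cell surface, had 44.5 RPKM in the CvP against 15.4 in the Epi, giving a ratio of 2.90 (2.73 to 3.08). *Porcn*, the enzyme that attaches the lipid, had 29.0 and 53.0, 1.83-fold lower in the CvP (1.72 to 1.95).

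Markers of other cell types differed between the libraries in both directions. Immune genes were higher in the CvP (4 of 6 over 3-fold, summed RPKM 84.6 and 25.6), and the 5 cycling cell genes had summed RPKM of 60.0 and 35.8, with none over 3-fold. Of 12 fibroblast genes, 4 had a mean RPKM of at least 0.5, 2 of them over 3-fold higher in the CvP (*Fbln1*, *Pdgfra*) and 1 in the Epi (*Dcn*), with summed RPKM of 50.8 and 134. The fibroblast collagens *Col1a1*, *Col1a2* and *Col3a1* were at 0.25 RPKM or less in both libraries. Of 4 endothelial genes read from the table, 1 was over 3-fold higher in the CvP (*Tek*, 2.49 and 0.07), and *Cdh5* was at 0.06 or less. Of 5 glial genes, 1 was over 3-fold higher in the CvP, with summed RPKM of 11.6 and 9.32. The 6 salivary gland genes had summed RPKM of 22.7 and 402, with 2 over 3-fold higher in the CvP against 3 in the Epi. The part of these markers, and of the taste and muscle genes above, in the Wnt values was not tested.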

How the data were processed

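The authors mapped single-end reads with Bowtie 0.12.7 to NCBI37/mm9 and deposited RPKM values from ERANGE for 1 pooled library per tissue, with a listed length per gene. How strand and multiply matching reads were handled is not given in the sources used here. The authors' ratio column, a comparison of the tissues, was not used. From the RPKM values, ratios were taken without a pseudocount, and median log2 ratios with a pseudocount of 0.1. Genes with a mean RPKM of at least 0.5 were counted as over 3-fold higher or lower. Depth was read from the RPKM step in 163 rows of 0.1 kb. Reads per gene were estimated from this depth and from the listed length or, where shorter, that of the longest GENCODE M1 coding transcript. Whether the RPKM was divided by the listed length is not stated. If it was, the estimated reads are too few where that length is the longer. It was over 1.5 times longer for 12 of the 45 members. From these reads came the 95% exact intervals and a floor of 3 reads per library. Depth, intervals and calls were tested on simulated data. Every member with a mean RPKM of at least 0.5 was named, as were other pathway genes past 3-fold with that mean. The members and lists were chosen with earlier results of these data known. RefSeq promoter windows were scanned for a Tcf motif in a wider form and then in a single form, the choice between them made after seeing the data. The alternatives were other minimums, folds, pseudocounts and scalings. Python 3.11.15, numpy 2.4.6, pandas 2.3.3, scipy 1.17.1 and matplotlib 3.10.9 were used.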

Additional observations from a re-analysis of the deposited data

How the results depend on the processing

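No paired analysis was possible because only 1 library was made per tissue, so no result comes from a test. The 2 members with a CvP RPKM above 10 and a ratio above 3 became 8, 7 and 1 with a CvP minimum of 1, 3 and 20 RPKM, 1 at a minimum ratio of 5, and 8 when both libraries were scaled to sum to 1000000. The rescaling raises every RPKM, so more genes pass 10. The 8 members over 3-fold higher in the CvP stayed between 6 and 12 under all alternatives but a minimum mean RPKM of 3, where fewer genes enter and 4 were left. *Tcf7l2* was no longer among them after division by the median ratio or by the trimmed mean, and *Tcf7l2* and *Wnt5b* with a pseudocount of 1. The 0 members over 3-fold higher in the Epi became 1 (*Wnt3*) at a minimum mean RPKM of 0.1 and with rescaling to that sum, and 2 (*Wnt3* and *Dkk1*) with no minimum. The direction of 6 members with ratios between 1 and 1.31 (*Wnt3a*, *Axin2*, *Fzd5*, *Fzd6*, *Lrp5*, *Sfrp1*) turned under the same divisions. That of *Wnt10a* and *Axin1* turned with rescaling to that sum. No member past 3-fold turned. *Nkd1*, *Wif1* and *Wnt5b* rest on 2, 4 and 9 estimated Epi reads, which leaves the size of their ratios open within the intervals given.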
